A study of Mus musculus with 6 samples.

Results

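The miR-181 family was described in small RNA of mouse sperm. Its members were taken by name from the miRNA table, as every row with the base name mmu-miR-181a, mmu-miR-181b, mmu-miR-181c or mmu-miR-181d, whatever the arm or copy. This gave 8 of the 778 miRNA features, 4 from the 5′ arm of the hairpin (5p) and 4 from the 3′ arm (3p). Sperm of the cauda epididymis came from C57BL/6 males aged 8 weeks. The labels put 3 samples in a normal group and 3 in a group of mice with depression induced by stress, here called normal and stress samples. The labels do not describe the stress procedure or say whether a sample is 1 animal or a pool. The p-values therefore measure only how far these libraries scatter, and that scatter may be technical.

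A microRNA (miRNA) is cut from a hairpin transcript, and as a rule 1 of its arms is loaded into an Argonaute protein and guides it to messenger RNAs. Pairing of the seed, bases 2 to 8 of the miRNA, largely decides which messages are repressed, so miRNAs with the same seed share many predicted targets. The miR-181 family is best known in lymphocytes, where it is abundant in developing T cells and tunes the sensitivity of T cell receptor signalling, and it is also expressed in brain.

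The mature sequences are shown because they define which members can act alike and which can share reads. They are printed as the deposited table gives them, 5′ to 3′, with the seed in capitals. The 4 members of the 5′ arm carry 1 seed, ACAUUCA:
miR-181a-5p: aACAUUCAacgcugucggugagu
miR-181b-5p: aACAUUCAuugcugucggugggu
miR-181c-5p: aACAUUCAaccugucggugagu
miR-181d-5p: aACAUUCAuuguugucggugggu
The members of the 3′ arm carry 3 different seeds, and miR-181a-1-3p and miR-181c-3p share theirs:
miR-181a-1-3p: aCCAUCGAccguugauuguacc
miR-181c-3p: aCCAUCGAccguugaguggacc
miR-181b-1-3p: cUCACUGAacaaugaaugc
miR-181d-3p: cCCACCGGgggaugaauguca

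No feature of the table outside the family had the 5p seed. Counted from 1 at the 5′ end, miR-181b-5p and miR-181d-5p differed by the single substitution C12U. From miR-181a-5p to miR-181b-5p there were 3 substitutions, A9U, C10U and A21G, and miR-181c-5p was 1 edit away from miR-181a-5p, being 1 base shorter (22 against 23 bases). RefSeq held all 8 names, and 6 sequences were identical there. In the other 2, miR-181b-5p and miR-181b-1-3p, the RefSeq entry was longer at the 3′ end, by 1 and 2 bases. Of the 48 family values in the table, 4 were fractions, all of them in miR-181a-5p, miR-181b-5p or miR-181d-5p. Values of these near-identical members are therefore uncertain to the extent that reads were split between them. How reads were split was not stated in the labels.

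The family has 6 gene copies in 3 pairs, placed here on GRCm38.p6 by RefSeq and annotated by GENCODE release M21. The labels name no build for the counts. Mir181a-1 (chr1:137966455-137966541) and Mir181b-1 (chr1:137966639-137966718) lie 97 bases apart on the plus strand, in an intron of the noncoding gene Gm4258, where both overlap an exon of the noncoding A430106G13Rik. Mir181a-2 (chr2:38852735-38852810) and Mir181b-2 (chr2:38853830-38853918) lie on the plus strand, opposite an intron of Nr6a1, which encodes the germ cell nuclear factor. Mir181c (chr8:84178873-84178961) and Mir181d (chr8:84178716-84178787) lie 85 bases apart on the minus strand, in an intron of the GENCODE model of Nanos3, a gene for an RNA-binding protein of germ cells. The 5p products of the copies on chromosomes 1 and 2 are identical, so the reads of miR-181a-5p and miR-181b-5p cannot be assigned to a copy. The 3p arms differ between copies, but for miR-181a and miR-181b the features include only the 3p arms of chromosome 1. The 3p arms of the chromosome 2 copies therefore have no level here, and their absence is not shown. The hairpins show how the arms differ, with both mature arms in capitals:
Mir181a-1: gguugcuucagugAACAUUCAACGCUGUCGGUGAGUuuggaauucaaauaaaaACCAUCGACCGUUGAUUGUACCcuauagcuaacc
Mir181a-2: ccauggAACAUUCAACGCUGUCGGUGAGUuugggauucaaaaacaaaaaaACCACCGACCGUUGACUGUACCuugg
Mir181d: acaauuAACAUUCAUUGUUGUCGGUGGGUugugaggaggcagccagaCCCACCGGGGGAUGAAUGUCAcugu

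The libraries held 1010203 to 3067208 miRNA reads. Normal replicate 3 was the deepest, and the others had at most 1522849. This library stood between the groups: over the log2 CPM of all tested miRNAs its correlation was 0.966 to 0.972 with the stress samples and 0.966 to 0.968 with the other normal samples, while those 2 stood at 0.922 to 0.948 with the stress samples. Family results are therefore also given without it. It was picked by its likeness to the stress samples, so leaving it out tends to widen a difference between the groups. Germ cell miRNAs fixed as markers of the labelled cell type were present under all 11 of their names, at a summed 7857 to 12920 CPM in normal and 5148 to 6926 CPM in stress samples. CPM here are counts per 1000000 miRNA reads after TMM scaling, a method that sets a factor per library so that most miRNAs are level between samples. The TMM factors separated the groups, at 0.683 to 0.86 in normal and 1.24 to 1.38 in stress samples, so each family result is given on this scale and as plain reads per 1000000 miRNA reads, written RPM.

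The miR-181 reads numbered 2246 over the 6 samples, of which miR-181a-5p gave 50.7%, miR-181d-5p 28.1% and miR-181b-5p 19.1%. By mean CPM these 3 stood at places 106, 133 and 145 of the 778 features. The other 5 features had 16 reads or fewer each in all libraries together, against 428 for miR-181b-5p, the lowest of the first 3. The family thus appeared in sperm as 3 guide strands of moderate abundance that share a seed, and a trace of everything else. Their mature lengths are equal, so these levels need no correction for length, but how well each sequence is captured in a library was not tested.

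miR-181a-5p, the most abundant member and the product of the chromosome 1 and 2 copies, stood at 96.8, 56.6 and 137.3 CPM in normal replicates 1 to 3 and at 161.0, 137.4 and 126.6 CPM in stress replicates 1 to 3. The groups overlapped, since stress replicate 3 lay below normal replicate 3. The fitted difference was 0.53 ± 0.33 (SE, n = 3 per group) on the log2 scale, stress minus normal, which is 1.44-fold, and it did not pass (edgeR quasi-likelihood test, adjusted p = 0.279, 95% interval −0.20 to 1.26). The value hung on single normal samples: it was 0.28 without normal replicate 2 and 0.91 without normal replicate 3 (edgeR adjusted p = 0.456 and 0.0701).

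miR-181d-5p, from the Nanos3 locus on chromosome 8, was at 56.2, 48.7 and 63.0 CPM in the normal and 78.6, 90.9 and 74.8 CPM in the stress replicates. All stress samples lay above all normal samples. The difference was 0.53 ± 0.27 (SE, n = 3 per group) on the log2 scale and did not pass (edgeR adjusted p = 0.182, 95% interval −0.055 to 1.12). Without normal replicate 3 it was 0.66 (edgeR adjusted p = 0.126), and without stress replicate 2 it was 0.45 (edgeR adjusted p = 0.468).

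miR-181b-5p was at 22.7, 34.2 and 44.4 CPM in the normal and 48.2, 49.7 and 76.2 CPM in the stress replicates. Here too every stress sample lay above every normal one, by a narrow margin between normal replicate 3 and stress replicate 1. The difference of 0.75 ± 0.34 (SE, n = 3 per group) on the log2 scale, 1.68-fold, did not pass (edgeR adjusted p = 0.155, 95% interval −0.0065 to 1.51). Without normal replicate 3 it was 1.05 (edgeR adjusted p = 0.0753), and without stress replicate 3 it was 0.52 (edgeR adjusted p = 0.444).

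No member of the family was therefore called with TMM scaling: 0 of the 3 tested had an adjusted p under 0.05 in edgeR, 0 had an unadjusted p under 0.05, and DESeq2 called 0 as well. Of all 236 tested miRNA features, 6 were called higher in stress (2.54%) and 24 lower (10.2%). An unadjusted p under 0.05 in edgeR was reached by 32.2% of all, and DESeq2 called 19.9%. With only 3 members tested, counts of 0 do not set the family apart from these shares. The 3 fold changes were all positive, with a median of 0.53 beside 0.00063 over all tested features, of which 50.4% were positive. They ranked 34 (miR-181b-5p), 51 (miR-181d-5p) and 52 (miR-181a-5p) of 236 from the most positive. Only features with enough reads were tested, so this describes 3 of the 8 members. All 3 intervals include 0 and reach past 1, so a missed threshold does not show equal levels. Every stress sample lay above every normal sample for 2 of these 3 members, and for 18.6% of all tested features.

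**Figure D1:**
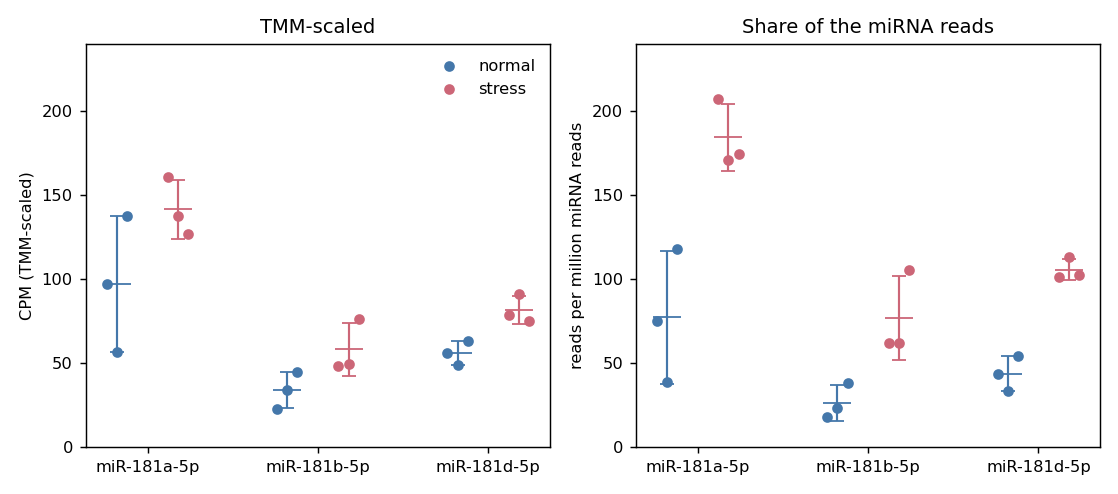
Levels of the 3 abundant miR-181 members in each sample, on the left as TMM-scaled CPM and on the right as RPM (points: samples; horizontal marks and bars: mean ± SD, n = 3 per group; blue: normal, red: stress). On the left miR-181a-5p overlaps between the groups, while on the right all 3 members are separated.

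**Figure D2:**
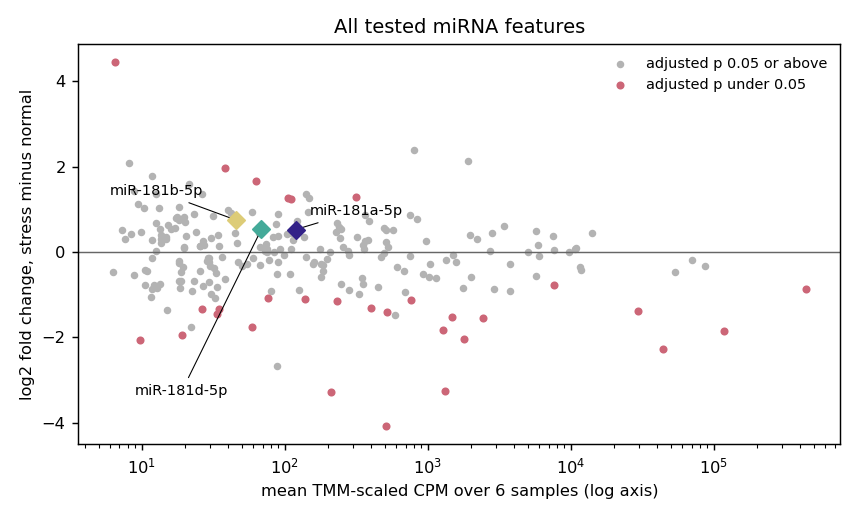
Log2 fold change (stress minus normal, TMM scaling) against mean CPM on a log axis for the 236 tested miRNA features, with the features called by edgeR in red and the 3 miR-181 members as diamonds. The members lie at 0.53 to 0.75, among features that were not called.

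As plain shares of the miRNA reads the groups were farther apart. The RPM of miR-181a-5p were 74.8, 38.6 and 118.0 in normal and 207.5, 171.1 and 174.2 in stress replicates. For miR-181d-5p they were 43.4, 33.3 and 54.1 in normal and 101.3, 112.9 and 102.5 in stress replicates. Values of miR-181b-5p were 17.5, 23.4 and 38.2 in normal and 62.2, 62.1 and 105.4 in stress replicates. Each of the 3 members was higher in every stress sample than in any normal sample. For miR-181a-5p the exact 95% binomial interval of the highest normal sample (106.2 to 130.8) did not meet that of the lowest stress sample (150.6 to 192.8), which covers counting error only.

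Scaled to the miRNA total, edgeR called all 3 members higher in stress. The log2 fold changes were 1.24 ± 0.38 for miR-181a-5p (adjusted p = 0.0247), 1.49 ± 0.38 for miR-181b-5p (adjusted p = 0.0119) and 1.27 ± 0.30 for miR-181d-5p (adjusted p = 0.0106; SE, n = 3 per group). With that scaling 40.7% of all 236 tested features were called higher, and the median of all features moved from 0.00063 to 0.76. Relative to that median the 3 members were at about the same distance as with TMM, since their own median moved to 1.27. Complete separation of the groups on this scale was likewise common, at 56.8% of all tested features.

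The family sum was 137.6, 97.1 and 215.2 RPM in normal and 381.5, 353.3 and 388.0 in stress replicates. The means were 150.0 ± 60.0 and 374.3 ± 18.5 (SD, n = 3 per group), a 2.5-fold ratio. The stress samples were close together, and the normal samples spread widely, with normal replicate 3 the highest and normal replicate 2 the lowest. Without normal replicate 3, the library between the groups, the ratio was 3.19-fold, and without normal replicate 2 it was 2.12-fold. The dominant miRNAs of these libraries are let-7 and miR-148a, and everything else took 26.2% ± 0.830 (SD) of reads in the normal group and 39.1% ± 1.14 in the stress group. Counted per 1000000 of those remaining reads, the family sum was 569.8 ± 212.6 in normal and 958.2 ± 47.4 in stress samples, a 1.68-fold ratio, again without overlap. With TMM it was 190.1 ± 55.1 and 287.2 ± 7.65 CPM, a 1.51-fold ratio. When the 4 members of the 5′ arm were summed into 1 feature, which takes away the split of shared reads between them, the log2 ratio with TMM was 0.59 ± 0.29 (SE). No p-value is given for sums over chosen members.

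**Figure D3:**
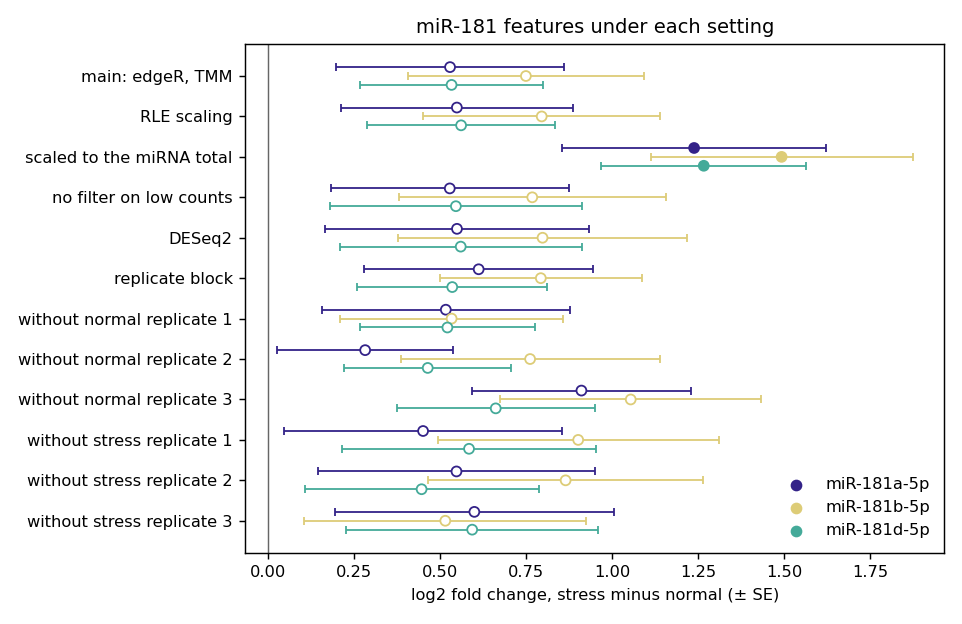
Log2 fold change (± SE) of the 3 abundant members in edgeR with TMM (top) and under the other settings tried; filled points had an adjusted p under 0.05. The points are filled where counts were scaled to the miRNA total (1.24 to 1.49), and all points of the plot lie right of 0.

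Within the family the proportions of the members varied between samples more than between groups. miR-181a-5p gave 54.4%, 39.8% and 54.9% of the family reads in normal and 54.4%, 48.4% and 44.9% in stress replicates. miR-181d-5p gave 31.5%, 34.3% and 25.2% in normal and 26.6%, 32.0% and 26.4% in stress replicates. For miR-181b-5p the shares were 12.8%, 24.1% and 17.7% in normal and 16.3%, 17.6% and 27.2% in stress replicates. The groups overlapped for each of these members. The ratio of miR-181d-5p to miR-181b-5p, which differ by 1 base and come from different chromosomes, ranged from 0.972 in stress replicate 3 to 2.47 in normal replicate 1. The ratio of miR-181a-5p to miR-181b-5p ranged from 1.65 in stress replicate 3 to 4.26 in normal replicate 1, and was also 1.65 in normal replicate 2. miR-181b-5p took its highest share in stress replicate 3 and its lowest in normal replicate 1.

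**Figure D4:**
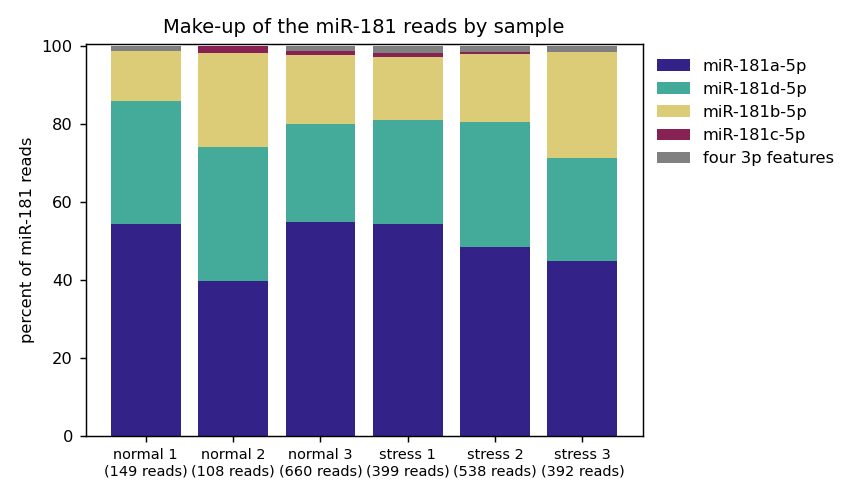
Percent of the miR-181 reads of each sample given by each member of the 5′ arm and by the 3p features together (bars: samples, with the number of family reads under each). miR-181a-5p is the largest part in every sample, at 39.8% to 54.9%, and no member separates the groups.

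miR-181c-5p, encoded 85 bases from miR-181d, was nearly missing. It had 0, 2 and 6 reads in normal and 4, 3 and 0 reads in stress replicates. Over the 6 samples there were 42.1 reads of miR-181d-5p for each read of miR-181c-5p (exact 95% binomial interval 25.3 to 75.6, counting error only). A count of 0 in normal replicate 1 allows up to 2.77 RPM, so its absence there is not shown. The edit of 1 base between miR-181c-5p and miR-181a-5p is a missing base, which puts the 2 sequences out of step from there to the 3′ end. No value of miR-181c-5p was a fraction. Whether reads of one were counted under the other name was not tested.

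The 3p arms gave 32 of the 2246 family reads, 1.42% (exact 95% binomial interval 0.977% to 2.01%). The share was 1.34%, 0% and 1.36% in normal and 1.75%, 1.49% and 1.53% in stress replicates. At 0 to 9 reads per sample these values cannot separate the groups, although no stress sample was below a normal one. miR-181c-3p had 2, 0 and 1 reads in normal and 2, 6 and 5 in stress replicates, about as many over all samples (16) as its 5p partner (15). For the d copy the strands were far apart, with 4 reads of miR-181d-3p beside 631.5 of miR-181d-5p.

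miR-181a-1-3p, the strand that marks the chromosome 1 copy, had 0 reads in each normal sample and 5, 2 and 1 reads in the stress replicates. Pooled over samples this was 2.24 RPM in stress, against a limit of 0.57 for 3 reads in the normal group. Stress replicates 2 and 3 alone, at 1.31 and 0.99 RPM, lay below the 2.77 and 2.70 RPM that 0 reads allow in normal replicates 1 and 2. With TMM the stress replicates were at 3.71, 1.06 and 0.72 CPM, where 3 reads equal 3.59, 3.95 and 1.14 CPM in the normal replicates. The size of a difference can therefore not be given. This strand rests on 8 reads, was below the filter for testing, and has no p-value. miR-181b-1-3p, from the same locus, had 4 reads in normal replicate 3, the deepest library, and 0 elsewhere. That is 1.30 RPM, where 0 reads allow up to 2.87, 1.97 and 2.97 RPM in stress replicates 1 to 3, so no direction can be read from it. miR-181d-3p had the same pattern, also with 4 reads in normal replicate 3 alone.

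The features whose profile was most like that of miR-181a-5p were found by the root mean square difference of log2 CPM over the 6 samples, after taking away each feature's own mean. Among 235 features the closest were miR-340-5p (0.125), miR-29a-3p (0.229), miR-9-5p (0.241), miR-205-5p (0.241) and miR-429-3p (0.245), where the median of all was 0.67. miR-340-5p had the same dip in normal replicate 2, at 210.4, 99.95 and 264.4 CPM in normal and 298.2, 290.2 and 217.2 CPM in stress replicates. None of these 5 passed in edgeR (adjusted p = 0.0511 for miR-205-5p, 0.243 for miR-9-5p and higher for the others). Within the family, miR-181d-5p came at place 12 (0.294) and miR-181b-5p at place 59 (0.495). Counting error widens this measure, and miR-181b-5p had only 19 and 26 reads in normal replicates 1 and 2, against 47 and 37 for miR-181d-5p. Reads may also be split between these members, so their places do not show which gene copies follow each other. The 6 samples share their depths and scaling factors between all these profiles, and likeness over so few samples is a description.

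Among lymphoid and myeloid miRNAs, the company in which miR-181 is best known, 6 features of the 10 in the table were tested, and 0 rose and 0 fell in edgeR with TMM. Of them 3 had an unadjusted p under 0.05, as had 32.2% of all tested features, and DESeq2 called 3, against 19.9% of all. Their median was 0.44 beside 0.00063 over all features. miR-146b-5p, by far the most abundant at a mean of 9698 CPM, was level (0.01 ± 0.21, edgeR adjusted p = 0.975). miR-146a-5p, a brake on inflammatory signalling, was at 0.87 ± 0.29 and miR-150-5p, a miRNA of mature lymphocytes, at 1.27 ± 0.49, and neither passed (edgeR adjusted p = 0.0631 and 0.11). The other 3 were rare and went both ways. miR-223-3p, a myeloid miRNA, was at 2.09 ± 0.68, nearest to a call (edgeR adjusted p = 0.0543), while its partner strand miR-223-5p was at −0.69 ± 0.48 and miR-142a-3p, found across blood cells, at −0.76 ± 0.53 (edgeR adjusted p = 0.33 for each). Without normal replicate 3, edgeR called 3 of the 6 higher, miR-146a-5p, miR-150-5p and miR-223-3p, beside 8.63% of the 255 features then tested. With the miRNA total as scale, 4 of the 6 were called higher, beside 40.7% of all features.

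The miR-23a cluster lies 29556 bases from Mir181c on chromosome 8. Of its 5 tested features 0 passed in edgeR with TMM, 2 had an unadjusted p under 0.05 and DESeq2 called 1, shares near the 32.2% and 19.9% of all features, and the median was 0.15. miR-23a-3p was nearest to a call, at 1.37 ± 0.43 (edgeR adjusted p = 0.0511), and was the 1 feature of the cluster called, as higher, without normal replicate 3. miR-24-3p, which has a further copy on another chromosome, was at 0.24 ± 0.26, and miR-27a-3p at 0.07 ± 0.36 (edgeR adjusted p = 0.564 and 0.902). The miRNA total as scale gave 2 higher calls among the 5, beside 40.7% of all features.

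Summed levels of some markers of other cells separated the groups as the family sum did. The 8 leukocyte marker features, which are the lymphoid and myeloid list without miR-146b, summed to 517.5 to 947.5 CPM in normal and 1051 to 1376 CPM in stress samples, without overlap. Most of that sum was miR-146a-5p, at a mean of 749 CPM, while miR-223-5p and miR-142a-3p had negative fold changes, as given above. The separation depended on the list. With miR-146b included, the sums overlapped, at 9454 to 11720 CPM in normal and 10370 to 11880 CPM in stress samples. Of the 5 tested leukocyte features 0 passed in edgeR, and the counts under the other rules and without normal replicate 3 were the 3 features named above. miR-155-5p, a marker of activated leukocytes, was below the filter. It was at 0 in normal replicates 1 and 2 and at 3.41 to 6.34 CPM in the other libraries, where 3 reads in those 2 samples equal 3.59 and 3.95 CPM, so no difference can be read from it. The 10 marker features of stroma, smooth muscle and endothelium summed to 3472 to 6740 CPM in normal and 7218 to 7988 CPM in stress samples. Most of that sum was miR-143-3p, at a mean of 5673 CPM. By itself miR-143-3p overlapped between the groups, at 6137 CPM in normal replicate 2 and 6083 CPM in stress replicate 1, and did not pass (0.49 ± 0.28, edgeR adjusted p = 0.243). Of the 7 tested features of this list, 2 rose, beside 2.54% of all features: miR-145a-5p and the combined miR-199a-3p and miR-199b-3p feature. Both were also called without normal replicate 3, beside 8.63% of the 255 features then tested. Their partner strands did not pass with all samples. miR-145a-3p was at 0.07 ± 0.28 and miR-199a-5p at 0.35 ± 0.37 (edgeR adjusted p = 0.867 and 0.538). miR-199b-5p, which is outside this list, was at 1.79 (edgeR adjusted p = 0.0511). With the miRNA total as scale 5 of the 7 were called higher, beside 40.7% of all. Germ cell markers had 3 of 17 tested features lower in stress, beside 10.2% of all features, and 0 higher, with a median of −0.29. Without normal replicate 3 they had 4 lower, beside 12.9% of all, and 1 higher. These calls depended on the scaling: relative to the miRNA total 5 of the 17 were called higher and 0 lower, beside 40.7% of all features called higher. The summed levels of epithelial, red blood cell, neuronal and striated muscle markers overlapped between the groups. The part of any of these cells in the miR-181 levels was not tested, and in bulk RNA fewer cells of a type and less RNA per cell cannot be told apart.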

How the data were processed

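The deposited miRNA table holds expected counts per mature miRNA for the 6 samples: 92.0% of its values were whole within 0.001, and the rest were fractions. Bowtie was used, per the submitters' processing notes. For its version, the genome build and how reads were filtered and counted, the entry is: not given in the sources used here. Counts were rounded and tested over the whole table with the two-sided quasi-likelihood test of edgeR 4.0.16 (R 4.3.3), after TMM scaling and filterByExpr at its minimum count of 10, with p-values adjusted by Benjamini-Hochberg over all 236 tested features at a threshold of 0.05. The SE is the size of the log2 fold change over the square root of F. DESeq2 1.42.0 on the same features, RLE scaling, the miRNA total, no filter, a replicate block and leaving out each sample were the alternatives. The sum of the 5p features, and the marker lists without normal replicate 3, were added after seeing the data. Members, marker lists and tests were chosen with earlier results of these data known. Named features were all family members, the 5 most like miR-181a-5p and up to 3 per list (called features first, then by abundance); others were chosen after their values were seen. The piRNA and tsRNA tables were not used, so every level is relative to the miRNA class. Samples were grouped by the disease state in the labels.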

Additional observations from a re-analysis of the deposited data

How the results depend on the processing

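The 3 tested members kept a positive log2 fold change in all 33 combinations of member and alternative. In 30 they stayed short of the threshold, and in 3, all with scaling to the miRNA total, they passed it, so the number of called members went from 0 to 3 there and was 0 under every other alternative, including each left-out sample. Outside that scaling the values ran from 0.28 to 0.91 for miR-181a-5p, 0.52 to 1.05 for miR-181b-5p and 0.45 to 0.66 for miR-181d-5p. Over all miRNAs, 30 features were called (6 higher, 24 lower), against 106 with the miRNA total (96 higher, 10 lower), 49 with no filter and 47 in DESeq2 (17 higher, 30 lower); RLE scaling called 44 (16 higher, 28 lower). Leaving out 1 sample gave 17 (without stress replicate 3) to 55 (without normal replicate 3). The log2 ratio of the family share was 1.32, and 0.75 outside let-7 and miR-148a; leaving out 1 sample gave 1.09 to 1.67. The cause of these shifts was not tested. With a replicate block 28 features were called and 0 members. Same-numbered samples gave no sign of deviating together (r = 0.11, −0.21 and 0.12 across miRNAs). Pairs of different number ran from −0.32 to 0.245. With 3 samples per group this cannot show whether same-numbered samples share more than a number. All 5 features most like miR-181a-5p were kept with the miRNA total. Low depth limits the 5 rare members, at 0 to 6 reads per sample.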
